A study of Homo sapiens with 6 samples.

Results

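The 35 genes described here encode heat shock factors, heat shock proteins and the co-chaperones that work with them, in cultured FaDu cells that received BB608, a compound, or its vehicle DMSO. They were taken by gene name from a list, and all 35 were found among the 20660 gene names of the table, where they have 184 coding sequences. FaDu is a widely used human line grown from a squamous carcinoma of the throat (hypopharynx), and the labels give BB608 by its code name alone. Total RNA came from 3 biological replicates of DMSO-treated cells and 3 of BB608-treated cells. The groups share the cell line and differ in the labelled treatment, and neither dose nor time is given in the sources used here. Being 1 line, FaDu stands for no other tumour or for normal epithelium. Most of the 35 proteins act in the cytosol and nucleus, but HSPA9, TRAP1, HSPD1 and HSPE1 are mitochondrial, so the set is wider than the cytosol.

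Heat shock proteins are chaperones, which bind unfolded or partly folded proteins and keep them from aggregating. HSP70 proteins take up a client from a J-domain protein and release it with the help of nucleotide exchange factors such as BAG and HSP110 proteins, and HSP90 with its own co-chaperones matures kinases and steroid receptors. When proteins unfold, heat shock factor 1 (HSF1) is freed from chaperones, forms trimers and binds heat shock elements, which are inverted repeats of the unit GAA in promoters. Some chaperone genes, such as HSPA6 and HSPA1A, are strongly induced in this way, while others, such as HSPA8, are expressed at a high level without stress. The clients of HSP90 include kinases and growth factor receptors on which many carcinomas depend.

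Levels are given as FPKM, sequenced fragments scaled to the length of the coding sequence and to the size of the library, so that they can be compared between genes of different length. The authors' deposited table holds 1 FPKM value per group for each coding sequence, pooled over the libraries of that group, and the depth behind it is unknown. FPKM values of all coding sequences of a gene were added up to a gene sum, which has no replicate error of its own. A gene was kept for medians when the authors had tested one of its coding sequences and its sum reached 1 FPKM in the group where it was higher. Of the 35 genes, 31 were kept, and each of these was above 1 FPKM in both groups. HSPA1L was below the minimum, and HSPA1B, HSPB8 and CRYAB had no tested coding sequence. A coding sequence is said to have risen or fallen only where the authors' q, a p-value corrected over all their tests, was below 0.05. Errors are the standard error (SE) implied by the authors' test statistic and p, and an implied 95% interval is built from it. No library can be seen apart from its group, so these errors rest on the authors' model alone.

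The cells had the markers of their label. All 8 squamous epithelial markers on a list were above 1 FPKM in both groups, with KRT5 at 2334 FPKM in DMSO and 2472 in BB608. The 5 fibroblast markers stood below 1 FPKM and together summed to 1.01 FPKM in DMSO and 0.865 in BB608. Of the blood and endothelial markers found, CD3E was listed at 0, while CD68 was at 22.9 and 20.3 FPKM and CDH5 at 3.82 and 4.09 FPKM. None of the markers was called in the authors' deposited table, where Cuffdiff gave 0 of their 28 tested coding sequences a q below 0.05 and none an unadjusted p below 0.05.

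Of the 35 genes, 1 rose with BB608, the strictly heat-inducible HSP70 gene HSPA6, and none fell. HSPA6 is also among the least expressed of them, at 1.79 FPKM in DMSO and 3.01 in BB608. The most abundant chaperones were at similar levels in both groups, with HSPA8 at 1613 and 1730 FPKM, HSP90AB1 at 1238 and 1366 FPKM, and HSP90AA1 at 1051 and 1132 FPKM. Together the 35 genes made up 1.40% of all FPKM in DMSO and 1.44% in BB608, and these 3 genes held 57.0% and 58.4% of that amount. In the authors' deposited table, 1 of the 124 tested coding sequences of these genes had a q below 0.05, against 0.354% of all 34474 tested coding sequences. Counted by gene, 1 of 32 tested genes rose (3.13%), against 0.429% of all 11429 tested genes. At an unadjusted p below 0.05 there were 3 coding sequences in that deposited table (2.42%), from HSPA6, HSPA1A and HSPB1, against 3.31% of all coding sequences. All 3 were higher in BB608, where 1.8% of all tested coding sequences were higher at that p. By gene this is 3 of 32 (9.38%), which is close to the 9.49% of all tested genes.

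**Figure D1:**
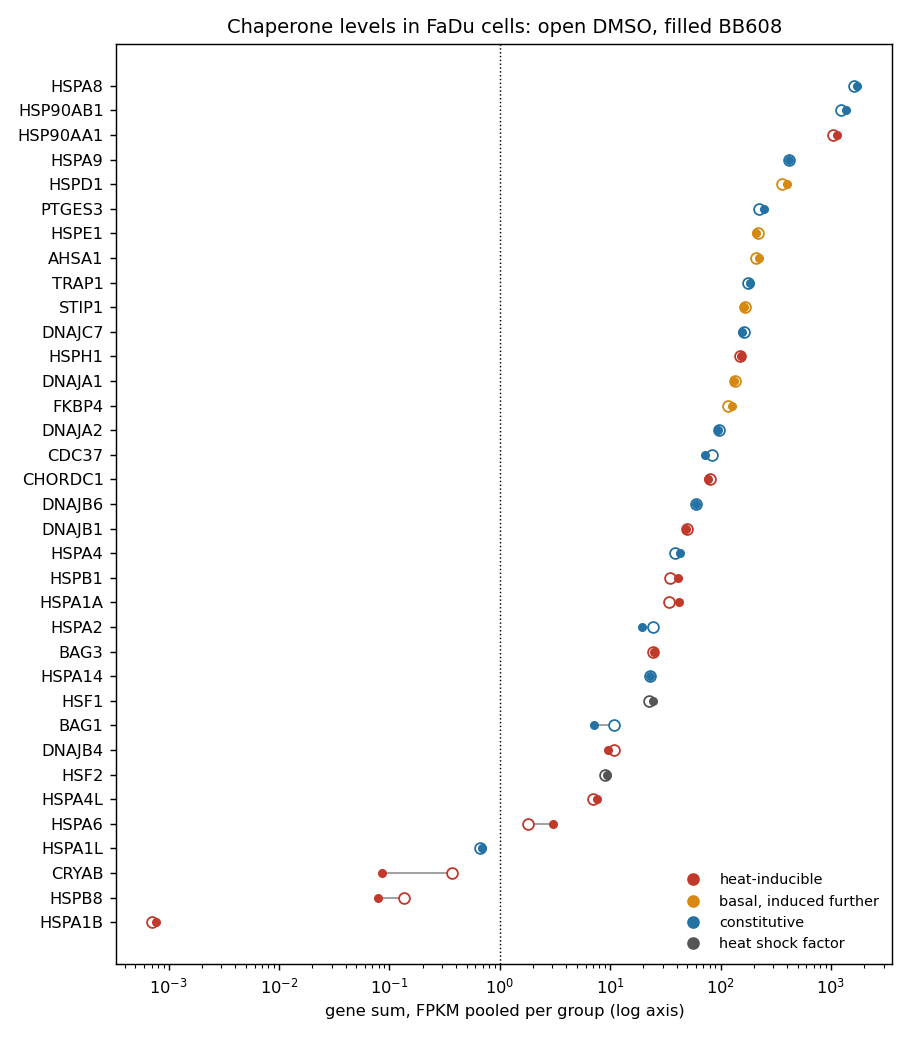
Gene sums of the 35 genes in FPKM on a log axis, with an open circle for the pooled DMSO value and a filled circle for the pooled BB608 value, coloured by class; the dotted line marks 1 FPKM and no error can be drawn. Levels run from HSPA8 at 1613 FPKM in DMSO down to HSPA1B at 0.0007 FPKM, and among genes above 1 FPKM the circles lie visibly apart for HSPA6 (1.79 and 3.01 FPKM) and BAG1 (10.9 and 7.15 FPKM).

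The factors that drive the response were expressed at nearly equal levels in both groups. HSF1, the main heat-responsive transcription factor, had a gene sum of 22.7 FPKM in DMSO and 24.4 in BB608, a log2 fold of 0.10. Its most abundant coding sequence had a log2 fold of 0.15 (p 0.639 in the authors' deposited table, implied SE 0.33), so the difference was smaller than its error. HSF2, a related factor with roles in development and in modulating HSF1, stood at 8.98 and 9.29 FPKM, a log2 fold of 0.05. The main coding sequence of HSF2 was slightly lower with BB608, at 8.12 and 7.87 FPKM (log2 fold -0.05, implied SE 0.15; p 0.744 in the authors' deposited table). Its other coding sequence was at 0.854 and 1.42 FPKM (p 0.154 in the authors' deposited table), and the share of the main one went from 90.5% to 84.7%. HSF1 stood 2.53 times as high as HSF2 in DMSO and 2.63 times as high in BB608. Activation of HSF1 takes place on the protein, and RNA levels do not measure it.

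The HSP70 family held the only rise. HSPA6 encodes HSP70B', an HSP70 that many unstressed cells hardly express. In the authors' deposited table it went from 1.79 to 3.01 FPKM, a 1.68-fold rise with a log2 fold of 0.75 (Cuffdiff p 5e-05, q 0.0154, implied SE 0.15, implied 95% interval 0.45 to 1.04). This p is the smallest that the table holds, and 46 of the 49 coding sequences that rose have it. Among those 49 rises, HSPA6 ranked 11 by fold, above the median of 0.49, and it had the 4th lowest DMSO level, where the median was 92.9 FPKM. A pseudocount of 1, which weighs down low values, gave a log2 fold of 0.52. HSPA6 has 1 coding sequence here, in a locus at chr1:161494035-161497632 of hg19, and 1 exon in GENCODE 29. Of all genes with 1 tested coding sequence, 81 of 3551 (2.28%) were called in the authors' deposited table. HSPA6 is 1 of 6 such genes among the 35, beside HSPA1A, HSPA1L, HSPA2, HSPA4 and FKBP4, and it was the only one of them called. In bulk RNA, more cells with HSPA6 RNA and more HSPA6 RNA per cell cannot be told apart. HSPA6 also has a near copy, the pseudogene HSPA7. The longest HSPA7 transcript in GENCODE 29 matches the longest open reading frame of HSPA6 at 1899 of 1926 aligned bases. The level of HSPA7 was not analysed here, and the sources used here do not say how reads were divided between the copies.

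HSPA1A, the major stress-induced HSP70, came next in the same direction without passing the authors' q. Its single tested coding sequence was at 34.4 FPKM in DMSO and 41.7 in BB608. That is a log2 fold of 0.28 (p 0.0046, q 0.587, implied SE 0.10, implied 95% interval 0.08 to 0.47) in the authors' deposited table. HSPA1B encodes almost the same protein from a neighbouring locus (chr6:31795511-31798031 of hg19, beside chr6:31777395-31785723 for HSPA1A), and it was listed at 0.0007 and 0.000764 FPKM without a test. The longest open reading frames of HSPA1A and HSPA1B differ at 4 of 1926 bases in GENCODE 29, so most reads from them cannot be assigned to one of them, and the value under HSPA1A may hold reads of both. HSPA6 shares 80.8% of its bases with HSPA1A and 72.2% with HSPA8. Their levels kept their order: HSPA6 stood at 5.21% of HSPA1A in DMSO and 7.22% in BB608, and HSPA1A at 2.13% and 2.41% of HSPA8.

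The constitutive HSP70 genes showed no call. HSPA8 encodes HSC70, the housekeeping HSP70 that also folds new proteins and strips clathrin from vesicles. Its gene sum was 1613 FPKM in DMSO and 1730 in BB608, a log2 fold of 0.10. The most abundant of its 11 tested coding sequences was at 730 and 749 FPKM, a log2 fold of 0.04 (p 0.79 in the authors' deposited table, implied SE 0.13). HSPA2, an HSP70 best known from the testis, was lower in BB608, at 24.7 and 19.3 FPKM. Its log2 fold of -0.35 was smaller than its implied SE of 0.38 (p 0.345 in the authors' deposited table). HSPA14, which works at the ribosome, stood at 22.8 FPKM in both groups. HSPA1L, a testis HSP70 that shares a locus with HSPA1A in the deposited table, was at 0.662 and 0.696 FPKM (p 0.913 in the authors' deposited table).

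Promoter sequences are shown for 5 genes, to set the HSF1 recognition sequence beside these values. HSPA6, HSPA1A and HSPB1 are the genes with an unadjusted p below 0.05, HSPA8 is the most abundant of the 35, and CHORDC1 has the most 3-unit matches, which was seen before it was chosen. Each is the 250 bases before the annotated RefSeq start (GRCh38.p14, not the hg19 of the expression table), written 5′ to 3′ in the direction of transcription. The positions are chr1:161524290-161524539 on the plus strand for HSPA6, chr6:31815293-31815542 plus for HSPA1A, chr7:76302423-76302672 plus for HSPB1, chr11:123062137-123062386 minus for HSPA8 and chr11:90223050-90223299 minus for CHORDC1. Capitals mark matches to a heat shock element of 3 units (GAA NN TTC NN GAA or TTC NN GAA NN TTC, written here with gaps, N being any base) or of 2 units (GAA NN TTC or TTC NN GAA).
HSPA6: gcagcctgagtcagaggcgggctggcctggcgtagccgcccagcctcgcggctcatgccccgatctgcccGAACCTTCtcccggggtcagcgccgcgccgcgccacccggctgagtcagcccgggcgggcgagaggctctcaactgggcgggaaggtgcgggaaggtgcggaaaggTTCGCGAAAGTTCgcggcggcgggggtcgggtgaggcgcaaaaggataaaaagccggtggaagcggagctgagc
HSPA1A: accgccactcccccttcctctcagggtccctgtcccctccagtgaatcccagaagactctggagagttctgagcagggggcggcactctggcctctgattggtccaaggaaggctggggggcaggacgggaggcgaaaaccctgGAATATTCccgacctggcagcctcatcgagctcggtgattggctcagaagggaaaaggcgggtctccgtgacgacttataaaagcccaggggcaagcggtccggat
HSPB1: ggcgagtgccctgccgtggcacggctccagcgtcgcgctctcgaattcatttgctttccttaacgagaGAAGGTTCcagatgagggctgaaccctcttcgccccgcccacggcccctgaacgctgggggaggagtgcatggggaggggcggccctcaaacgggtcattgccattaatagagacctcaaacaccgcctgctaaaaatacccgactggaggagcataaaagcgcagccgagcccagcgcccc
HSPA8: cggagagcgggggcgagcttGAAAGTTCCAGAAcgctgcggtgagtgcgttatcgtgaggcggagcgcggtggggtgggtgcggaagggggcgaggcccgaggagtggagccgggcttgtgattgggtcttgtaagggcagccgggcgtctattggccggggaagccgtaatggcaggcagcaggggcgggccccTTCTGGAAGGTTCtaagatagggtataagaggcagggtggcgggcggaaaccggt
CHORDC1: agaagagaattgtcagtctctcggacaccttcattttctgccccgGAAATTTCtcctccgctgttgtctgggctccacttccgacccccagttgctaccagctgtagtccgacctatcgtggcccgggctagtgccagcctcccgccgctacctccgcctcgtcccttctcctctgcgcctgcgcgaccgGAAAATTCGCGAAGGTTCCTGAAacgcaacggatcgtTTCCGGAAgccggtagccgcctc
HSPA6 has a 3-unit match 74 to 62 bases before its start, and a separate 2-unit match further upstream. HSPA1A has a 2-unit match 106 to 99 bases before its start and HSPB1 one 182 to 175 bases before. HSPA8, the constitutive gene, has 3-unit matches at 230 to 218 and at 55 to 43 bases before its start. In CHORDC1, 3 overlapping 3-unit matches cover 60 to 38 bases before the start.

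Over the whole set, RefSeq windows of 300 bases (250 before to 50 after a start) were found for 31 of the 35 genes, all but FKBP4, CRYAB, HSF1 and HSPA14. Both strands were searched, and every 3-unit match also holds 2-unit matches. A 3-unit match was in a window of 8 of these 31 genes (25.8%), against 0.608% of all 27305 gene symbols in the table. A 2-unit match was in 18 of 31 (58.1%), against 16.2% of all symbols. The 3-unit matches fell in genes of 3 classes, and HSF2, the heat shock factor with a window, had none. Of the genes with one, HSPA6, HSP90AA1 and CHORDC1 are heat-inducible, DNAJA1 and HSPD1 are expressed without stress and induced further, and HSPA8, HSP90AB1 and DNAJB6 are constitutive. The 2-unit matches were in 10 of 12 inducible and 5 of 13 constitutive genes. Windows of HSPA1A and HSPA1L overlap by 241 bases and those of HSPD1 and HSPE1 by 204, so these are not separate promoters. The HSPD1 window that overlaps HSPE1 holds no match, and the 3-unit matches of HSPD1 lie in its other window. The 8 genes with a 3-unit match had a median log2 fold of 0.10, from -0.07 in CHORDC1 to 0.75 in HSPA6. The 20 other kept genes with a window had a median of 0.01. With 1 pooled value per group, the difference between these medians has no error and was not tested. Only exact GAA and TTC units were counted, so elements with a changed base in a unit were missed. A gene without a match may still hold such an element. A match is a run of letters and not a bound site, and no binding was measured.

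**Figure D2:**
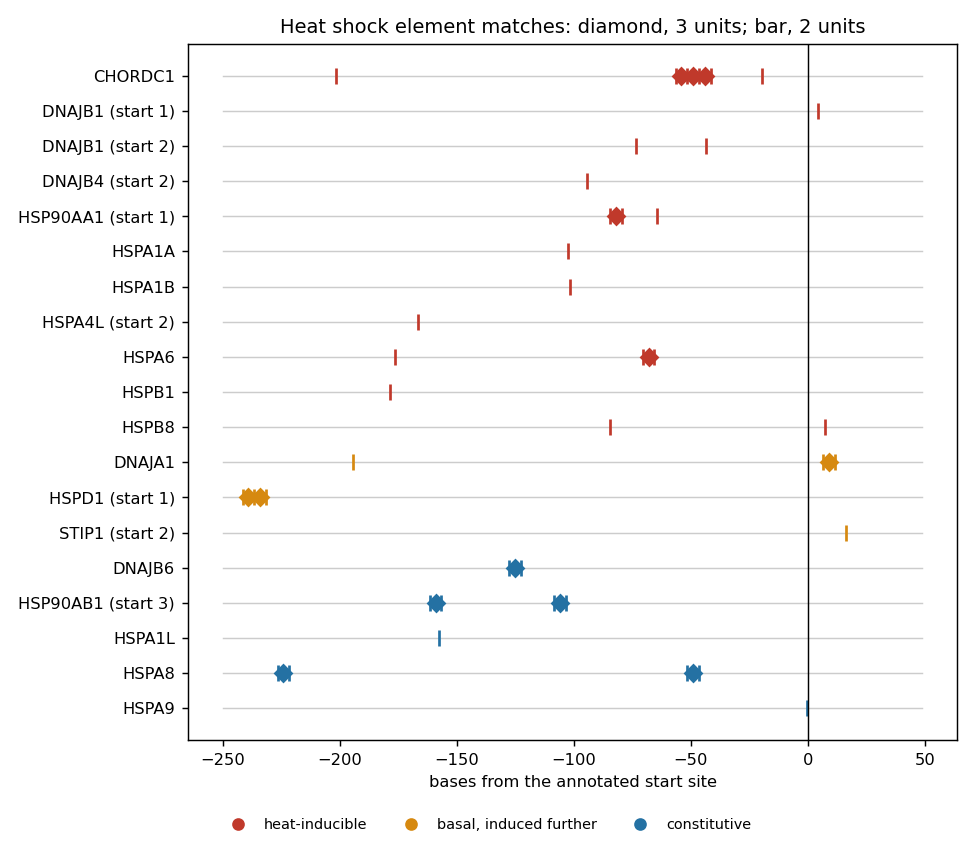
Positions of heat shock element matches in bases from the annotated start site, for each gene window with a match; a diamond is the centre of a 3-unit match, a bar that of a 2-unit match, and colours give the class. The inducible HSPA6, HSP90AA1 and CHORDC1 and the constitutive HSPA8 have a diamond shortly before the start, while HSPA1A, HSPA1B and HSPB1 have a single bar each.

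The 3 HSP110 genes had log2 folds of the gene sum from 0.00 to 0.14, and none was called. The HSP110 proteins exchange the nucleotide of HSP70 and help to dissolve aggregates. HSPH1, the most abundant of them and heat-inducible, stood at 151 FPKM in DMSO and 152 in BB608, a log2 fold of 0.00. HSPA4 was at 39.1 and 42.9 FPKM (log2 fold 0.14; p 0.348 in the authors' deposited table). HSPA4L was at 7.02 and 7.52 FPKM, a log2 fold of 0.10. Beside HSPA6 and HSPA1A, the heat-inducible HSPH1 was at the same level in both groups within its error, and its most abundant coding sequence had a log2 fold of -0.02 with an implied SE of 0.15.

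Both cytosolic HSP90 genes were slightly higher in BB608, and neither was called. The stress-inducible HSP90AA1 had a gene sum of 1051 FPKM in DMSO and 1132 in BB608, a log2 fold of 0.11. Its most abundant coding sequence was at 635 and 679 FPKM, a log2 fold of 0.10 (p 0.364 in the authors' deposited table, implied SE 0.11). The constitutive HSP90AB1 had a log2 fold of 0.14 for its gene sum and 0.07 for its most abundant coding sequence (p 0.529 in the authors' deposited table, implied SE 0.11). HSP90AA1 stood at 84.9% of HSP90AB1 in DMSO and 82.9% in BB608, a difference in the ratio that was not tested. Most of the difference in the HSP90AB1 gene sum lay in a lesser coding sequence at 117 and 206 FPKM. Its log2 fold was 0.82 with an implied SE of 0.74 (p 0.278 in the authors' deposited table).

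The mitochondrial chaperones refold proteins imported into the organelle. HSPA9, the mitochondrial HSP70, was the most abundant of them at 414 and 416 FPKM, a log2 fold of 0.01. TRAP1, the mitochondrial HSP90, stood at 178 and 185 FPKM. HSPD1 and HSPE1 encode HSP60 and its lid HSP10 and are read in opposite directions from a shared promoter region. HSPD1 was at 358 FPKM in DMSO and 398 in BB608 (log2 fold 0.15), and its most abundant coding sequence had a log2 fold of 0.12 (p 0.324 in the authors' deposited table, implied SE 0.12). HSPE1 was at 216 and 209 FPKM, a log2 fold of -0.05. The ratio of HSPD1 to HSPE1 went from 1.66 to 1.91, and this change in the ratio was not tested.

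Among small heat shock proteins, which hold unfolded clients until HSP70 takes them over, only HSPB1 was measured above 1 FPKM. HSPB1, or HSP27, had a gene sum of 34.6 FPKM in DMSO and 41.0 in BB608, a log2 fold of 0.24. All 3 of its coding sequences were higher in BB608. The most abundant was at 27.9 and 31.3 FPKM, a log2 fold of 0.17 (p 0.319 in the authors' deposited table, implied SE 0.17). The second was at 5.90 and 8.66 FPKM, a log2 fold of 0.55 (p 0.0245, q 0.997 in the authors' deposited table, implied SE 0.24). The HSPB1 locus lies at chr7:75931860-75933612 of hg19. CRYAB, a small heat shock protein of lens and muscle, was listed at 0.372 and 0.0862 FPKM and HSPB8, a partner of BAG3 in the removal of aggregates, at 0.137 and 0.0782 FPKM. Neither was tested by the authors.

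J-domain proteins bring clients to HSP70 and start its cycle. Of the 6 such genes in this set, 5 had a lower gene sum in BB608, and their log2 folds ran from -0.18 in DNAJB4 to 0.01 in DNAJB6. No coding sequence of these genes had an unadjusted p below 0.05 or a Cuffdiff q below 0.05 in the authors' deposited table. DNAJC7, which also binds HSP90, was the most abundant at 162 FPKM in DMSO and 157 in BB608. DNAJA1 was at 135 and 133 FPKM, DNAJA2 at 96.6 and 95.2 FPKM, DNAJB6 at 59.6 and 60.1 FPKM and DNAJB4 at 10.8 and 9.52 FPKM. DNAJB1, or HSP40, is a heat-inducible partner of HSPA1A and a common marker of HSF1 activity. It stood at 49.8 FPKM in DMSO and 48.3 in BB608, and its main coding sequence had a log2 fold of -0.12 (p 0.338 in the authors' deposited table, implied SE 0.12). The implied 95% interval of that coding sequence runs from -0.35 to 0.12.

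BAG proteins release clients from HSP70. BAG3, a heat-inducible member that directs clients to autophagy, was at 24.5 FPKM in DMSO and 25.2 in BB608, a log2 fold of 0.04. Its main coding sequence had a log2 fold of 0.07 (p 0.665 in the authors' deposited table, implied SE 0.17). BAG1, a constitutive member that binds the proteasome, had the lowest fold of all 31 kept genes, at 10.9 and 7.15 FPKM (log2 fold -0.61). Its 3 tested coding sequences were not all lower. The most abundant was at 4.995 and 3.18 FPKM, a log2 fold of -0.65 (p 0.0728 in the authors' deposited table, implied SE 0.36). The next was at 4.57 and 1.68 FPKM (p 0.0969 in the authors' deposited table), and the last was higher in BB608, at 0.928 and 1.82 FPKM (p 0.384 in the authors' deposited table). The share of the second in the gene sum went from 42.0% to 23.5% and that of the last from 8.53% to 25.4%. None of these passed the authors' q, and the interval of the most abundant runs from -1.37 to 0.06.

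Co-chaperones of HSP90 were 3 higher and 3 lower in BB608. PTGES3, or p23, which stabilises the closed form of HSP90, was the most abundant at 223 FPKM in DMSO and 245 in BB608 (log2 fold 0.14). Its main coding sequence was lower in BB608, at 158 and 150 FPKM, and a lesser one was at 26.2 and 42.0 FPKM (log2 fold 0.68; p 0.0518 in the authors' deposited table). AHSA1, which stimulates the ATPase of HSP90, was at 210 and 222 FPKM and FKBP4, an immunophilin of steroid receptor complexes, at 118 and 126 FPKM. STIP1, the adaptor that joins HSP70 to HSP90, was at 168 and 162 FPKM, and CHORDC1, a heat-inducible HSP90 partner, at 79.9 and 76.3 FPKM. CDC37, which delivers kinases to HSP90, was at 84.5 and 72.3 FPKM, a log2 fold of -0.22, and its main coding sequence had an implied SE of 0.13 (p 0.179 in the authors' deposited table).

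**Figure D3:**
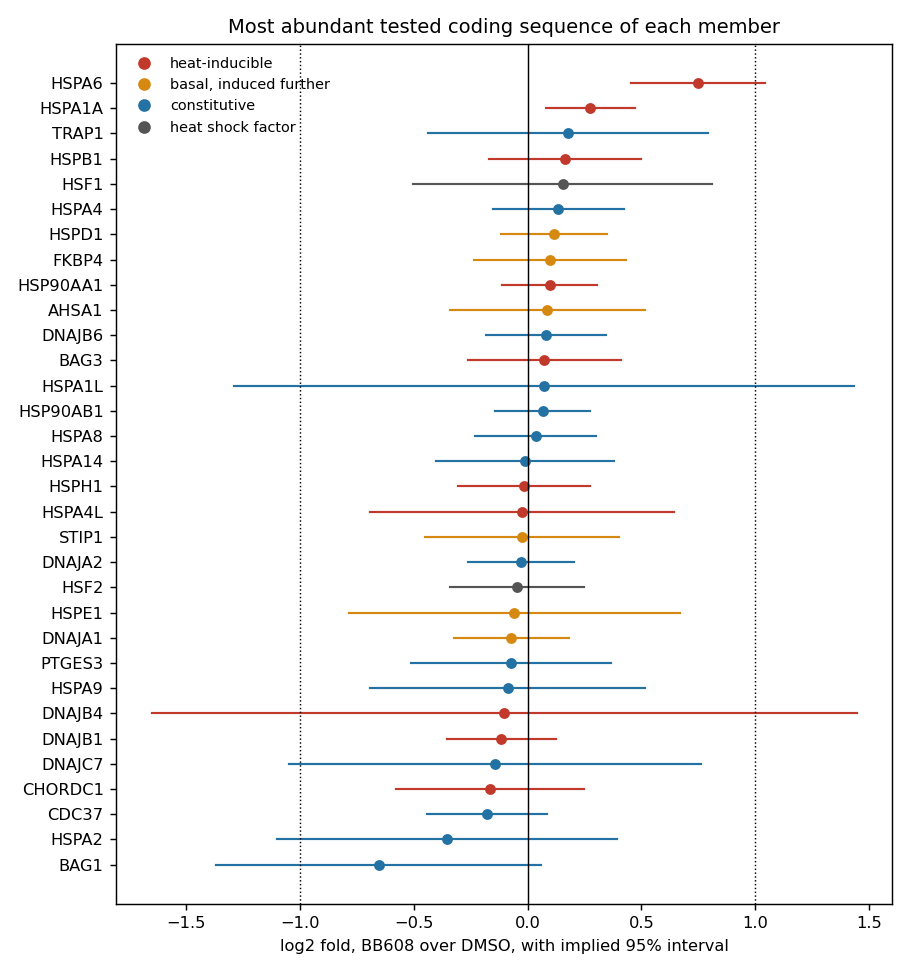
Log2 fold of BB608 over DMSO for the most abundant tested coding sequence of each of the 32 tested genes, with the implied 95% interval as a horizontal line, coloured by class; dotted lines mark 1 log2 in either direction. The intervals of HSPA6 (0.45 to 1.04) and HSPA1A (0.08 to 0.47) lie above 0, and all others include 0.

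The inducible and the constitutive genes were compared as classes. The 10 kept heat-inducible genes had a median log2 fold of 0.07, with 7 higher and 3 lower, from -0.18 in DNAJB4 to 0.75 in HSPA6. The 13 kept constitutive genes had a median of 0.01, with 8 higher and 5 lower (5 and 8 once the median of all kept genes was subtracted), from -0.61 in BAG1 to 0.14 in HSP90AB1. The 6 genes that are expressed without stress and induced further, such as HSPD1 and STIP1, had a median of 0.03, from -0.05 to 0.15. All 31 kept genes had a median of 0.04 and all 10859 kept genes of the table one of 0.03, with quartiles at -0.09 and 0.18. The inducible median was higher than the constitutive one by 0.06. With 1 pooled value per group, this difference has no error and no test. The class sums differed by about the same fold, from 1446 to 1537 FPKM for the inducible genes (log2 fold 0.09) and from 4168 to 4419 FPKM for the constitutive ones (0.08). These sums mostly reflect a few abundant genes. In DMSO, HSP90AA1 held 1051 of the inducible FPKM, and HSPA8 and HSP90AB1 held 1613 and 1238 of the constitutive FPKM.

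The upper end of the inducible class was made up of 3 genes. HSPA6, HSPA1A and HSPB1 had the highest folds of the 31 kept genes, and the other 7 inducible genes lay between -0.18 and 0.11. These 3 were also the only genes of any class with a coding sequence at an unadjusted p below 0.05 in the authors' deposited table. That is 3 of 10 tested inducible genes, 0 of the 6 expressed without stress and induced further, and 0 of 14 constitutive genes. Over all 32 tested genes of the set it is 9.38%, close to the 9.49% of all tested genes. The classes were set with earlier results of these data known, so this split is a description and not a test. The division into classes is textbook knowledge of how each gene responds to heat, and the response of these genes to heat in FaDu cells was not analysed here. Other heat-inducible genes with a known place among HSF1 targets, DNAJB1, HSPH1, BAG3, HSP90AA1 and CHORDC1, had log2 folds of -0.04, 0.00, 0.04, 0.11 and -0.07.

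**Figure D4:**
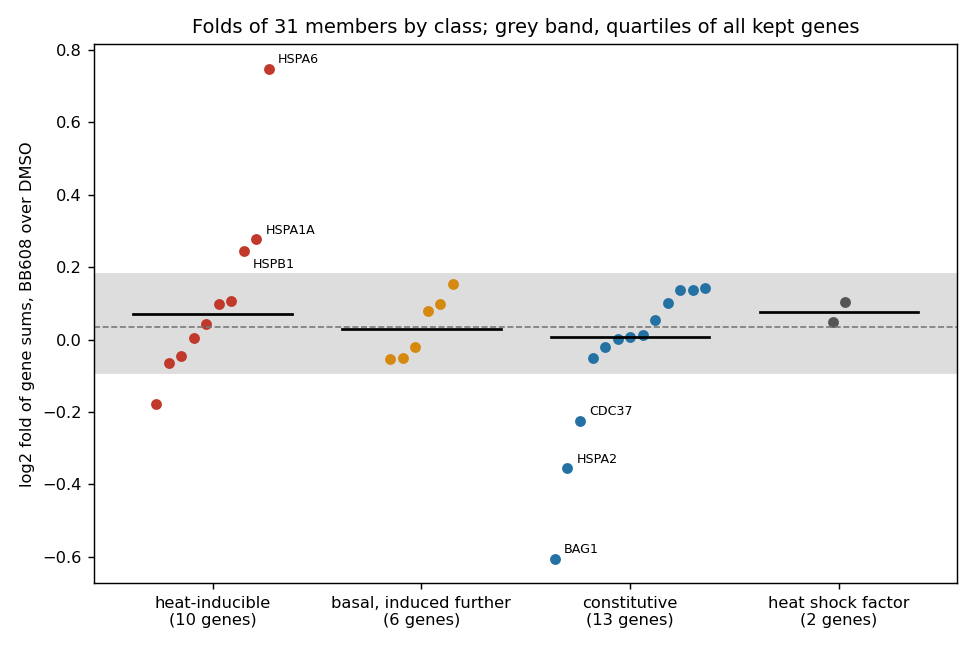
Log2 fold of the gene sum, BB608 over DMSO, for the 31 kept genes as points in 4 classes, with a horizontal line at each class median; the grey band spans the quartiles of all 10859 kept genes (-0.09 to 0.18) and the dashed line their median (0.03). HSPA6, HSPA1A and HSPB1 lie above the band in the inducible class, and DNAJB4 below it, and BAG1, HSPA2 and CDC37 lie below it in the constitutive class.

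The spread among the 35 genes was small for most of them. Of the 31 kept genes, 17 had a gene sum within 0.1 log2 of no difference (54.8%, against 39.0% of all kept genes) and 25 within 0.2 log2 (80.6%, against 62.6%). The 31 genes and all kept genes were not matched for expression level. Whether these shares differ between genes of like level was not tested. In BB608, 20 of the 31 genes were higher and 11 lower, and 64.5% higher compares with 57.6% of all kept genes. After subtraction of the median of all kept genes, 16 were higher and 15 lower, and all 6 J-domain genes of the set were then on the lower side. J-domain genes among the other co-chaperones, outside the 35, lay on both sides of that median. For 26 of the 32 most abundant tested coding sequences the implied 95% interval lay within 1 log2 in both directions, so that a change of that size fell outside it. The exceptions were HSPA1L, HSPA2, HSPA6, DNAJB4, DNAJC7 and BAG1. Over 119 tested coding sequences with a computable error the implied SE ran from 0.10 to 4.91 with a median of 0.51.

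Among tested coding sequences, most held a similar share of their gene sum in both groups. The largest shifts among them were in BAG1, in STIP1, where a coding sequence went from 31.9% to 23.7% of the gene sum, and in PTGES3, where the main one went from 70.6% to 61.1%. The STIP1 sequence was at 53.5 and 38.3 FPKM (p 0.137 in the authors' deposited table). None of these passed the authors' q. Cufflinks divides reads among coding sequences that overlap, and that division is an estimate.

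**Figure D5:**
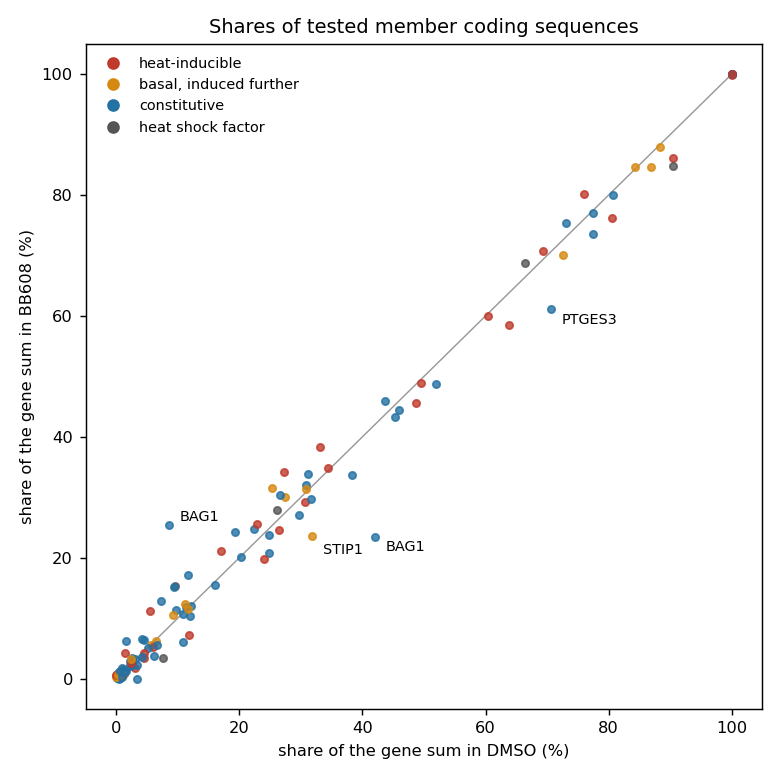
Share of each tested coding sequence in the gene sum of its gene, in percent, with DMSO on the horizontal and BB608 on the vertical axis; each point is 1 coding sequence, coloured by class, and the grey line marks equal shares. Most points follow the line, and the labelled ones in BAG1, STIP1 and PTGES3 lie farther off.

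Other genes of protein folding gave the surroundings for these values. Lists of 52 further genes held the cytosolic chaperonin CCT, prefoldin, other co-chaperones and other heat shock genes or HSF regulators. Of these, 51 had a tested coding sequence. Cuffdiff called 0 of their 162 tested coding sequences in the authors' deposited table, against 0.354% of all tested coding sequences. At an unadjusted p below 0.05 there were 3 of the 51 genes, against 9.49% of all tested genes. The CCT ring folds actin and tubulin, and its 8 subunits had a median log2 fold of 0.02, from -0.02 to 0.07. Prefoldin passes clients to CCT, and its 6 subunits had a median of 0.01, from -0.34 to 0.02. The 26 other co-chaperones had a median of 0.07, with 18 higher and 8 lower. The 11 kept genes of the last list had a median of -0.06, with 2 higher and 9 lower. The lowest of them was HSF4, a heat shock factor of the lens, at 3.00 and 1.66 FPKM and a log2 fold of -0.85. The smallest Cuffdiff p among the 3 tested coding sequences of HSF4 was 0.244, and none was called.

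The 3 genes at an unadjusted p below 0.05 in these lists were all lower in BB608, and 2 of them are described. GRPEL1, the nucleotide exchange factor of HSPA9, was at 13.4 and 10.5 FPKM, a log2 fold of -0.35 (p 0.0228 in the authors' deposited table). A coding sequence of HSPA13, an HSP70 of microsomes, was at 12.8 and 9.61 FPKM, a log2 fold of -0.41 (p 0.0139 in the authors' deposited table).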

How the data were processed

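RNA sequencing measured 6 libraries of FaDu cells, 3 biological replicates each of DMSO and BB608 per the series' design text. Per the labels' protocols, RNA was extracted in Trizol, and a strand-specific total RNA kit with ribosomal RNA depletion was used. TopHat2 2.0.11, Cufflinks 2.2.1 and Cuffdiff are named with hg19 in the submitters' processing notes; no gene annotation is named there. The authors' deposited table has 82428 coding sequences, of which 34474 were tested, with 1 pooled FPKM value per group. The authors' deposited score is the test statistic of Cuffdiff, computed before deposit, and it cannot be remade from the pooled FPKM values alone. Each deposited row also has the p-value, the q-value and the log2 fold of the authors' test. Its column names call both groups a subset, which no source used here explains.

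From these values, gene sums, log2 folds, medians and counts were computed with Python 3.11.15, pandas 2.3.3 and numpy 2.4.6, without a pseudocount. The deposited log2 fold matched the log2 ratio of the deposited FPKM values to within 4.72e-05, and the deposited q-value a Benjamini-Hochberg adjustment to within 5.23e-07. The implied SE is the log2 fold divided by the statistic and by 1.73, the median of the normal quantile of p over the absolute statistic in 32512 coding sequences (quartiles 1.64 and 1.78). It is an approximation. The planned limma fit needs values per library and was replaced by the authors' Cuffdiff q. The calling and summing steps were tested on simulated data. The changed genes there had larger folds than most genes described here, and the authors' Cuffdiff was not tested in this way. Open reading frames and the HSPA7 transcript came from GENCODE 29, and promoters were taken from RefSeq (GRCh38.p14) by gene symbol.

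The 35 genes, their classes and the other lists were chosen with earlier results of these data known. Values are given in full for genes at the authors' q or at an unadjusted p below 0.05, for the most abundant gene of each role, and for HSF1, HSF2, HSPA1A, HSPA1B, HSPA6, HSPA8, HSP90AA1, HSP90AB1, DNAJB1 and BAG3. Genes outside the 35 are named at that q or p, except 1 that is not reported here. HSF4, and the coding sequences of BAG1, STIP1 and PTGES3, were named after their values were seen. Alternatives for folds were the most abundant coding sequence, a pseudocount, other minimum levels, scaling by the median log2 ratio and quantile normalization. For the class medians, the genes expressed without stress and induced further were also counted as inducible. Alternatives for calls were an unadjusted p, q recomputed above a minimum level, and a bound on the fold.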

Additional observations from a re-analysis of the deposited data

How the results depend on the processing

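The count of genes called, 1 with the authors' q, was 3 at an unadjusted p below 0.05, and 1 with q recomputed over those averaging 1 FPKM or more. It was 0 over those averaging 5 FPKM or more, which leaves out HSPA6, and 0 with a bound of 1 log2 on the fold. The median log2 fold of the constitutive genes, 0.01, was -0.0301 with the most abundant tested coding sequence of each gene, -0.0277 with folds scaled by the median log2 ratio of all kept genes (a shift of 0.03), and -0.0413 with quantile normalization. The inducible median stayed between 0.03 and 0.07, and its difference from the constitutive one between 0.04 and 0.07, in the alternatives run. Gene sums have no error of their own, so moves were set against the implied SE of each gene's most abundant tested coding sequence. Single genes were recomputed in 124 cases, and 123 moved by less than that SE. The exception was HSPA6 with a pseudocount of 1, at 0.52. No call changed direction. Uncalled folds changed sign in 14 cases, in HSF2, HSPA14, HSPA4L, HSPH1, HSPA9, PTGES3 and DNAJB6. The largest of these folds was that of PTGES3, at 0.14 for the gene sum and -0.07 for its most abundant tested coding sequence.

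No paired analysis was possible because each group is given as a single pooled FPKM value. The planned replicate block and the leaving out of each replicate were not run, as both need values per library. Depth is unknown, and counting error is not given. Whether 1 library carried the rise of HSPA6 was not tested.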
